A study of Homo sapiens with 2 samples.

Results

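The AP-1 transcription factor subunits and the early growth response factors were examined in parental melanoma cells and in cells selected with carmustine. The set was defined by gene symbol as FOS, FOSB, FOSL1, FOSL2, JUN, JUNB, JUND, ATF3, EGR1 and EGR2, 10 genes in all. Probes carrying one of these symbols were found for 9 of them, out of 20046 genes with a named probe, and none was found for EGR2, which is not analysed here. The 9 members had 11 probes, 3 of them for ATF3 and 1 for each of the others. RNA came from 1 sample of parental A2058 cells, an established human melanoma line, and from 1 sample of drug-selected A2058 cells, which the labels also call carmustine-resistant. The drug-selected cells were derived from these with carmustine, an agent that alkylates and crosslinks DNA. The labels give 100 uM and 6 months, while the paper describes repeated cycles with recovery in between, in which the dose was raised stepwise to 100 uM, and a parental culture kept in parallel. Both were grown in DMEM with 10% fetal bovine serum. Where a pair of values is given with no group named, the parental value comes first. Each sample was measured on 1 bead array, so the differences given here have no replicate error and no p-value, and 1 array per group sets their precision. The drug-selected cells are a single selected population of a single line. Whether carmustine was present at harvest, and how long before harvest fresh serum was added, are not given in the sources used here.

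AP-1 is a dimer of basic leucine zipper (bZIP) proteins. A FOS-family protein pairs with a JUN-family protein, JUN-family proteins also pair with each other, and ATF3 pairs with JUN proteins or with itself. JUN-FOS dimers bind the TPA response element, and dimers with ATF proteins prefer the cyclic AMP response element (CRE). The EGR factors are zinc finger proteins that bind GC-rich sites. Most of these genes are immediate-early genes, switched on by serum, stress and ERK signalling without new protein synthesis, and JUND is known as the more steadily expressed member. In melanoma, high JUN and FOSL1 are known from undifferentiated cells with low MITF, the master regulator of the melanocyte lineage.

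Promoter windows of 250 bases before and 50 bases after each annotated start were taken from RefSeq (GRCh38.p14), where 9 of the 10 members matched, with 12 windows in all. FOSL1 had no entry. The bases upstream of the start are printed 5′ to 3′ on the gene's strand for the members with the larger differences between the arrays, FOS, JUN, ATF3, JUNB and FOSL2, and for EGR1, whose signal was nearly equal on both. Capitals mark matches, on either strand, to 6 motifs. These included TGACGTCA, the full CRE, and its half-site TGACGT, which lies within the full site, and the JUN-type AP-1 site TGACATCA. The others were TGANTCA for the TPA response element, GCGNGGGCG for the EGR motif and the CArG box, the site of serum response factor. N stands for any base, so TGANTCA and GCGNGGGCG are looser than strict forms of that element and that motif. The windows lie at chr14:75278578-75278827 (plus strand) for FOS, chr1:58784048-58784297 (minus strand) for JUN, chr1:212565157-212565406 (plus strand) for the first of 2 ATF3 starts, chr19:12791236-12791485 (plus strand) for JUNB, chr2:28392608-28392857 (plus strand) for FOSL2 and chr5:138465229-138465478 (plus strand) for EGR1.
FOS: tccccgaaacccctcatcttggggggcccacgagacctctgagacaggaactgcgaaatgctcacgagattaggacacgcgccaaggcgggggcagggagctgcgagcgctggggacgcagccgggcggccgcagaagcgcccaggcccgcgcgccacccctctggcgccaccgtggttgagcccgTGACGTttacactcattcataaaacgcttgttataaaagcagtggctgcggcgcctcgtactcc
JUN: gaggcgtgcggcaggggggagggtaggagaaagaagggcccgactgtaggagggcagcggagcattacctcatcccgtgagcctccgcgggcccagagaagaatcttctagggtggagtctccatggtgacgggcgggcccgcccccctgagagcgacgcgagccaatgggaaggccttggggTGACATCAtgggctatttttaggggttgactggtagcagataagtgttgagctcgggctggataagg
ATF3: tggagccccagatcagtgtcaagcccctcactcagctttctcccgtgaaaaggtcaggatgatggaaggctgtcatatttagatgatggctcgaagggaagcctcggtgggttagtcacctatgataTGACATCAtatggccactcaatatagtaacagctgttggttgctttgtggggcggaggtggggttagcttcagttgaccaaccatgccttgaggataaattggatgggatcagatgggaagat
JUNB: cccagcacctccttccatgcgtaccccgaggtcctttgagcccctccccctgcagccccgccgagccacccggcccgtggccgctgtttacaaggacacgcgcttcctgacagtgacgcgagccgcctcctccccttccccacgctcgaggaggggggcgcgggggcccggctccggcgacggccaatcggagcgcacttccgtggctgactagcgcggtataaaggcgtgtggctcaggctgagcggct
FOSL2: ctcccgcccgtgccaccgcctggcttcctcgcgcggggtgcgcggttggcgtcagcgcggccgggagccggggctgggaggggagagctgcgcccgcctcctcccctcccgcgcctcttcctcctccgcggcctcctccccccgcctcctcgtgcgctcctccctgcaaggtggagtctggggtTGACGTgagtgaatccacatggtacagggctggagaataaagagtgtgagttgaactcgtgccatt
EGR1: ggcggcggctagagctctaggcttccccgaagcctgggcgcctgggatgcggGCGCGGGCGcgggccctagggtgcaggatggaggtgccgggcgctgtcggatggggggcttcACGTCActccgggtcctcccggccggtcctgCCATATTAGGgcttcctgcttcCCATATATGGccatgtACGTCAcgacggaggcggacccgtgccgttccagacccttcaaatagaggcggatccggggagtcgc

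The CRE half-site was the most common match. It was found in 6 of the 9 members with a window, FOS, FOSB, FOSL2, JUND, EGR1 and EGR2, and in 7.98% of all 35116 promoter windows of the same length. In FOS it lay 64 bases upstream of the start, in FOSB 60 and in FOSL2 66 bases upstream. The full CRE was found only in JUND, 200 bases upstream, against 1.85% of all windows. TGACATCA was found in JUN, 67 bases upstream, and at the first ATF3 start, 123 bases upstream, and in 2.61% of all windows. CArG boxes were found in EGR1, at 105 and 83 bases upstream, and in EGR2, 71 bases upstream of its first start, against 1.29% of all windows. The windows end 250 bases upstream, so a CArG box further away, in FOS or another member, could not be found. The EGR motif was found in the same 2 genes, against 9.43% of all windows. In EGR2 it lay just after the second start, in another window than the CArG box. TGANTCA was found in FOSL2 alone, just after the start and so beyond the printed bases, against 7.71%. ATF3 and EGR2 have several windows each, which gives them more chances of a match than the shares per window reflect. JUNB, the second ATF3 start and the third EGR2 start held no match. These matches describe letters in the windows and say nothing of whether a factor is bound, and which start each ATF3 probe reports on was not examined.

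**Figure D1:**
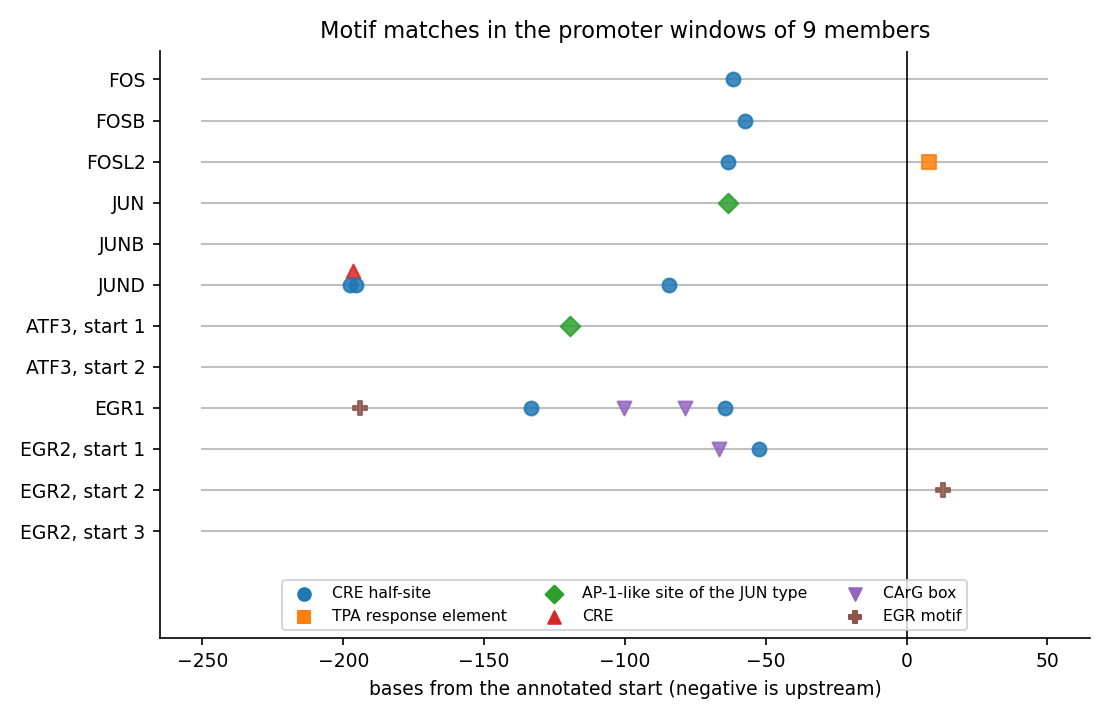
Matches to 6 motifs in the 12 promoter windows of 9 members, by distance in bases from the annotated start, where negative is upstream. The half-sites of FOS, FOSB and FOSL2 sit between 60 and 66 bases upstream, the JUN-type site is in JUN and at the first ATF3 start, and the lines of JUNB, the second ATF3 start and the third EGR2 start are empty. The full CRE of JUND is drawn above the 2 half-sites within it.

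The drug-selected array was the brighter one, with a median signal of 63.1 against 52.5 and a background level of 53.3 against 45.2. Deposited signals of the members are therefore given first, and then log2 signals after background correction (normexp, offset 16) and quantile normalization between the arrays. A probe was called detected at a detection p-value under 0.05 against the negative control beads of its array. Higher and lower mean a difference of more than 2-fold between the arrays, which is a threshold of size and not a test. Where a gene had several detected probes, the brightest by its mean over both arrays stood for it. As a guide to the spread, probes of the same gene differed in their log2 difference with an SD of 0.31 over 2892 genes measured on both arrays by several probes, which covers disagreement between probes and not between cultures. The signals are of bulk RNA, so fewer cells with a transcript and less transcript per cell cannot be told apart.

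**Figure D2:**
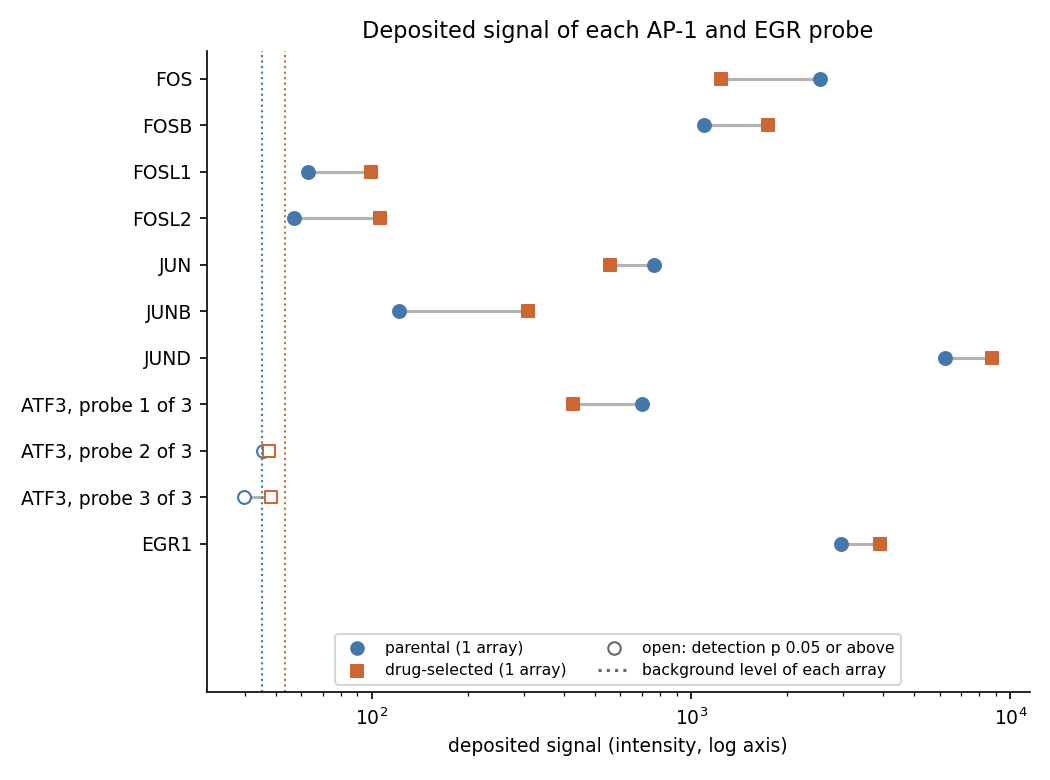
Deposited signal of each probe on a log axis, with circles for the parental array and squares for the drug-selected array. FOS (2532 against 1238), JUN and the detected ATF3 probe were dimmer on the drug-selected array and the other detected probes brighter, while 2 ATF3 probes stayed at the background level (dotted lines) on both.

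Among the FOS family, FOS was lower in drug-selected cells and FOSL2 stood at the threshold on the higher side, while FOSB differed little. FOS, the founding subunit and a strong activator, had a signal of 2532 in parental cells against 1238 in drug-selected ones. It was dimmer even before normalization, although the drug-selected array was the brighter one. After normalization its log2 signals were 11.49 and 10.04, 2.74-fold lower, and 2.32% of the 12832 detected genes were as low or lower. FOSB, like FOS a subunit with a strong activation domain, had signals of 1098 and 1747. Its log2 difference of 0.27 was within the spread between probes.

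FOSL1 and FOSL2, also called FRA1 and FRA2, lack the strong activation domain of FOS and were dim on both arrays. FOSL1 had a signal of 63.2 in parental cells, 1.40 times the background level, and 99.6 in drug-selected cells. Its log2 difference was 0.53, 1.44-fold, and so within 2-fold. This was above the spread between probes under the main setting. With a normexp offset of 50, without normexp and in the authors' normalized values the difference was no larger than that spread. FOSL2 had a signal of 56.8 in parental cells, where its detection p-value was 0.0442, and 106 in drug-selected cells. Its log2 difference was 0.99, 1.99-fold, just under the threshold. Both parental signals lay close to background, and over the alternative settings the log2 difference of FOSL1 ranged from 0.30 to 0.88 and that of FOSL2 from 0.55 to 1.64.

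The JUN family was also divided, with JUNB higher, JUN less than 2-fold lower and JUND nearly equal. JUN, the strongest activator of its family, had a signal of 765 in parental cells against 559 in drug-selected ones. Its log2 signal went from 9.75 to 8.84, a 1.88-fold difference that fell short of the threshold, and 7.23% of detected genes were as low or lower. JUNB, which can oppose JUN at shared sites, had a signal of 122 in parental cells against 308 in drug-selected ones. It was 2.17-fold higher after normalization, with log2 signals of 6.76 and 7.88. JUNB fell within 2-fold, at log2 differences down to 0.92, with a normexp offset of 50, without normexp and in the authors' normalized values. JUND had signals of 6251 and 8782, and its log2 difference of 0.15 was within the spread between probes.

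ATF3, a stress-induced bZIP protein that mostly represses as a homodimer, was lower in drug-selected cells by the one of its 3 probes that was detected. This probe had a signal of 703 in parental cells against 428 in drug-selected ones, and its log2 signal went from 9.62 to 8.41, 2.30-fold lower. It was within 2-fold without normalization between the arrays (-0.79 on the log2 scale) and with scaling to the median (-0.92). The other probes had signals of 45.4 and 39.7 in parental cells and of 47.4 and 48.2 once drug-selected, with detection p-values from 0.471 to 0.787. Both lay near the background level throughout. EGR1, an immediate-early zinc finger factor and a common readout of ERK signalling, had signals of 2946 and 3916 in the same order. After normalization its log2 signals were 11.74 and 11.73, a difference of -0.01. Without normalization between the arrays the difference was 0.41, where the median of all detected genes was 0.37, and with scaling to the median it was 0.27, where that of all genes was 0.23.

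In all, the 9 measured members held 1 higher gene, 2 lower genes and 6 within 2-fold. Each of the 9 was detected on both arrays. Among the 12832 detected genes the share higher was 7.12% and the share lower 5.84%, and among the 10904 detected on both arrays the shares were 5.65% and 6.02%. With so few members and no replicate, a count of 3 is read only as a description. The median log2 difference of the members was 0.15, against 0.00 for all detected genes, and their quartiles lay at -0.91 and 0.53, against -0.40 and 0.37 for all detected genes. The members thus lay on both sides, with little shared direction. At a threshold of 1.5-fold, 2 members were higher (JUNB and FOSL2) and 3 lower (FOS, JUN and ATF3), where 15.4% and 15.9% of all detected genes passed. None passed 3-fold, where 3.54% of all detected genes were higher and 1.76% lower. The balance of all genes followed the scaling, with 914 genes higher and 749 lower after quantile normalization, 1817 and 341 without normalization between the arrays, and 1402 and 434 with scaling to the median.

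**Figure D3:**
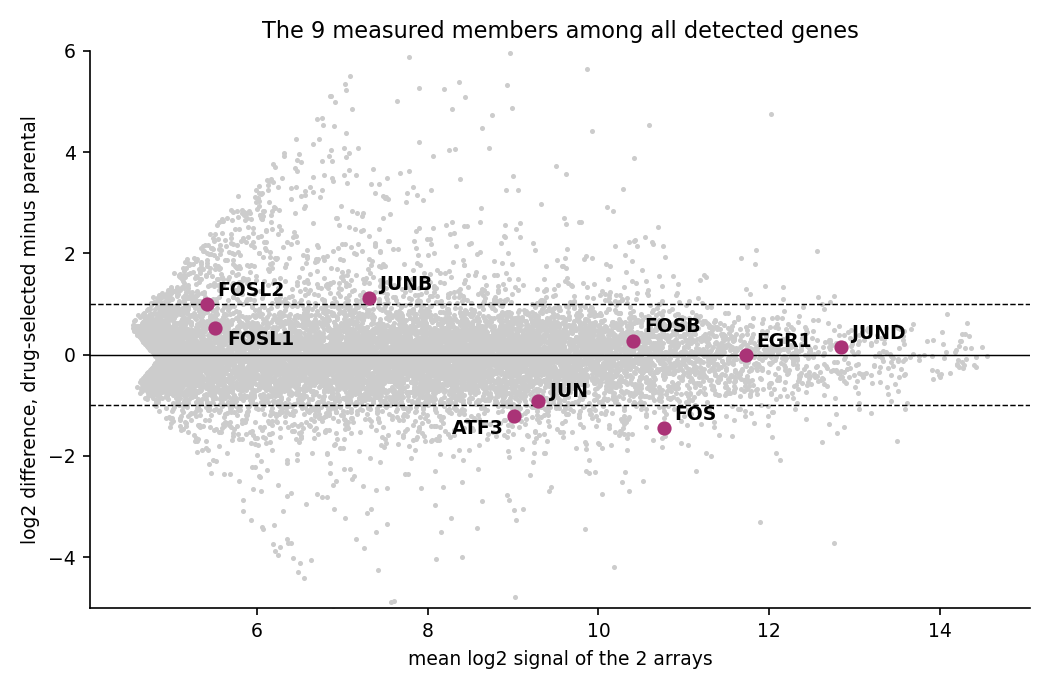
Log2 difference, drug-selected minus parental, against the mean log2 signal of both arrays for 12832 detected genes (grey, 1 probe per gene, 10 genes beyond the plotted range) and the 9 measured members (purple). Dashed lines mark 2-fold. FOS and ATF3 lie below the lower line, JUNB above the upper one, and FOSL2 and JUN next to them.

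A scaling factor between the arrays cancels when the differences of 2 members are set against each other. Relative to JUN, JUNB was 4.08-fold higher in drug-selected than in parental cells, a log2 contrast of 2.03 that ranged from 1.78 to 2.18 over the main setting and 7 alternatives of background correction and normalization. JUND was 2.08-fold higher relative to JUN (0.99 to 1.08 on the log2 scale). The JUN family members thus differed unequally, whichever setting was used. In the FOS family, FOSB was 3.31-fold higher relative to FOS (1.69 to 1.77), and FOSL2 was 5.45-fold higher relative to FOS (1.98 to 3.11), the latter resting on a dim parental signal. EGR1 was 2.72-fold higher relative to FOS (1.41 to 1.48), although both genes are induced early by serum. These pairs were chosen after the values were seen.

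**Figure D4:**
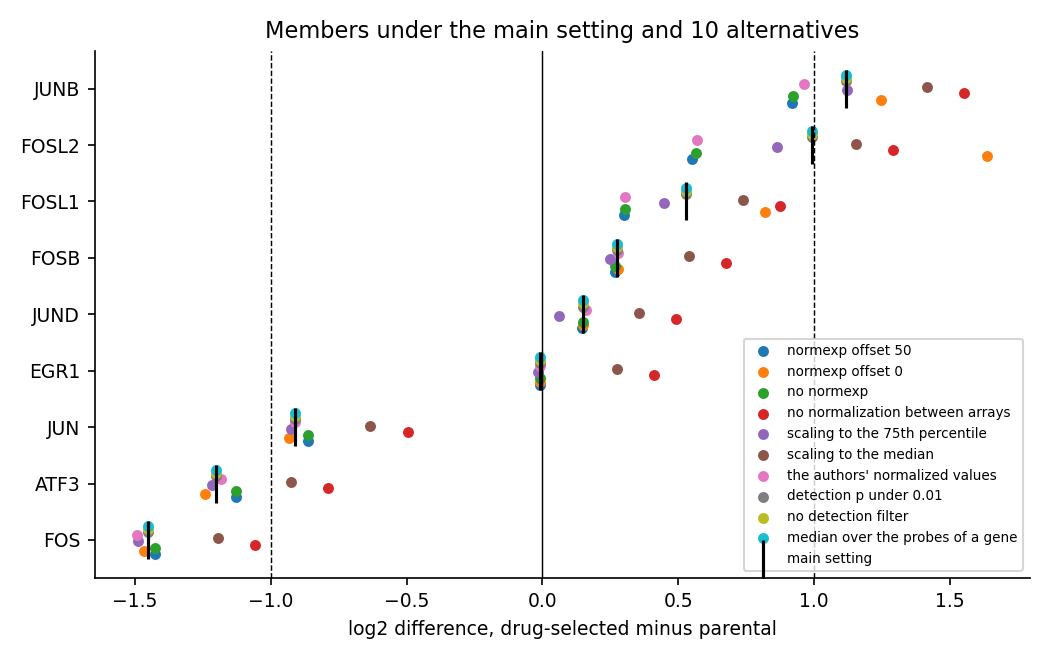
Log2 difference of each member under the main setting (black bar) and 10 alternatives (coloured points), with dashed lines at 2-fold. FOS has the lowest main value (-1.45) and JUNB the highest (1.12), FOSL2 has the widest range, and the points furthest to the right for the bright genes are those without normalization between the arrays or with scaling to the median.

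Other bZIP proteins that pair with AP-1 subunits, or relate to them, were more often lower than higher. Of 23 listed, 19 were detected, with 6 lower and 1 higher, where 5.84% of all detected genes were lower and 7.12% higher. Their median log2 difference was -0.42, against 0.00 for all detected genes. DDIT3, the stress factor CHOP, had a signal of 644 in parental cells against 171 in drug-selected ones and was 6.14-fold lower. CEBPG, a partner of ATF4, was 2.84-fold lower, with signals of 741 and 373. CREB5, a relative of ATF2, was 2.78-fold lower, with signals of 214 and 128. The others lower were JDP2, which dimerises with JUN, and the small MAF proteins MAFF and MAFG. For MAFF, 2 of 3 detected probes were lower and 1 was higher. CEBPD, an acute-phase member, was the exception, 7.54-fold higher with signals of 372 and 3431. The count of lower genes ranged from 1 to 8 over the alternative settings.

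The kinases and serum response factors upstream of these genes differed little. Of 24 listed, 20 were detected, with 2 lower, none higher and a median of -0.23 on the log2 scale. The count of 2 in 20 is read against 5.84% lower among all detected genes, and it ranged from 1 to 4 over the alternative settings. RPS6KA5, the kinase MSK1 that phosphorylates CREB and histone H3 at immediate-early genes, had a signal of 453 in parental cells against 148 in drug-selected ones and was 5.11-fold lower. MEF2A, which binds the JUN promoter, was 2.52-fold lower by 1 of 2 detected probes. SRF, which binds CArG boxes, and its partner ELK1 stayed within 2-fold, with log2 differences of -0.33 and -0.14. Of the 5 EGR relatives and corepressors, 4 were detected and none passed 2-fold, where 7.12% of all detected genes were higher and 5.84% lower. With so few genes, this is read only as a description. EGR3 had a log2 difference of -0.10, and the corepressors NAB1 and NAB2, which bind EGR proteins and limit their activity, had 0.39 and -0.22. EGR4 was not detected.

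Other immediate-early genes were more often higher than lower, and among the members FOS and ATF3 were lower and JUNB was higher. Of 29 listed, 28 were detected, with 7 higher, 1 lower and a median of 0.52 on the log2 scale, where 7.12% of all detected genes were higher and 5.84% lower. Over the alternative settings the higher count ranged from 3 to 11 and the lower count from 1 to 4. PTGS2, which encodes cyclooxygenase-2, had a signal of 1556 in parental cells against 8543 in drug-selected ones and was 4.21-fold higher by both probes. KLF10, a TGF-beta-induced repressor, was 3.85-fold higher and GEM, a small GTPase, 3.71-fold higher, each by 2 of 3 detected probes. The others higher were ZFP36, which destabilises AU-rich transcripts, the phosphatase DUSP1, and the secreted matrix proteins CCN1 and CCN2. The lower gene was NR4A3, an orphan nuclear receptor, with signals of 213 and 72.4, a 6.69-fold difference, while its relative NR4A2 had a log2 difference of 0.78 in the other direction. IER2 and NR4A1, which are often induced together with FOS, stayed within 2-fold at 0.35 and 0.18.

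Genes known as AP-1 targets were higher or within 2-fold. Of 26 listed, 18 were detected, with 10 higher, none lower and a median of 1.45 on the log2 scale. Among all detected genes 7.12% were higher and 5.84% lower. Of these 18, 5 were detected in drug-selected cells alone and passed the filter only through that array. Among the 13 detected on both arrays, 7 were higher, none was lower and the median was 1.01. The shares over all genes detected on both arrays were 5.65% higher and 6.02% lower. Many are also targets of NF-kB, and cytokine genes were known to be higher on these arrays when the list was written. The 3 with the largest differences were the cytokine IL6 (49.5-fold), the chemokine CCL2 (at least 27.0-fold, since its parental signal was near background) and the chemokine CXCL8 (26.9-fold). The collagenase MMP1, whose promoter is a classical AP-1 target, had signals of 286 and 1458 and was 4.18-fold higher. MT2A, one of a family of very similar metallothionein genes that its probe may not tell apart, was 3.69-fold higher, with signals of 435 and 2034. PLAUR was counted as higher at 2.02-fold, by 1 of 3 detected probes. CD44 and VEGFA stayed within 2-fold. Of 16 listed EGR targets, 9 were detected, with 4 higher, 1 lower and a median of 0.61. Among the 8 detected on both arrays 3 were higher, 1 was lower and the median was 0.48. These counts are read against the same shares over all genes. Over the alternative settings the higher count ranged from 2 to 5 and the lower count from 0 to 1. PTGES, a prostaglandin E synthase, was 11.9-fold and F3, the coagulation initiator tissue factor, 9.08-fold higher. GADD45A was counted as higher at 2.03-fold, by 1 of 2 detected probes. PDGFA was counted as higher, but its parental signal was not well above background and the difference was at least 1.81-fold. MBP, a myelin gene, was 2.01-fold lower by its 3 probes, a call at the threshold that was lost in 6 of the 12 alternative settings.

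**Figure D5:**
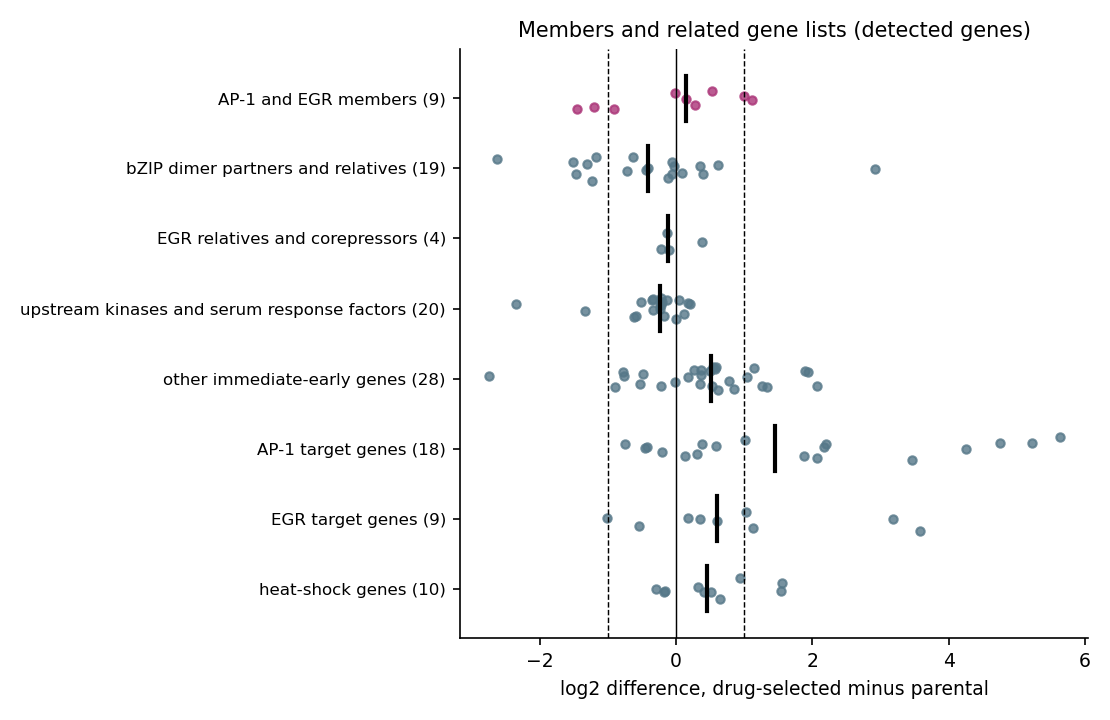
Log2 difference, drug-selected minus parental, of the 9 measured members (purple) and of the detected genes of 7 related lists (grey-blue, number in brackets), with the median as a black bar and dashed lines at 2-fold. Points are shifted vertically at random. The members lie on both sides of 0, the bZIP relatives have the lowest median (-0.42) and the AP-1 targets the highest (1.45, or 1.01 over the 13 detected on both arrays).

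Markers of cell identity and stress differed along with these genes. Their counts are read against 7.12% higher and 5.84% lower among all detected genes. Of 7 melanocyte markers, 6 were detected on both arrays, none at 0, and 5 were lower in drug-selected cells, with a summed linear signal of 43386 in parental cells against 4114 in drug-selected ones. MITF was 6.45-fold lower by 1 of 2 detected probes, and SOX10 was 1.88-fold lower. Of 10 heat-shock genes, HSPA1A and HSPA1B, near-identical copies whose probes may bind both transcripts, were 2.94-fold and 2.91-fold higher. The rest stayed within 2-fold, though 1 of 2 detected probes of HSPA8 (1.92-fold) was higher. The summed signal was 42100 and 58858, and the higher count ranged from 0 to 4 over the alternative settings. Of 7 fibroblast markers 6 were detected, 3 higher and 2 lower, with a summed signal of 3674 and 1723. Only 3 of the 6 were detected on both arrays, 1 higher and 2 lower, with a median log2 difference of -1.61. Among all genes detected on both arrays 5.65% were higher and 6.02% lower. PDGFRB (at least 6.65-fold), FAP (5.50-fold) and COL3A1 (at least 2.31-fold) were higher, DCN (8.32-fold) and LUM (3.06-fold) were lower, and COL1A2 was not detected. Of 5 leukocyte markers 2 were detected, the monocyte marker CD14, 10.4-fold higher by both probes with signals of 72.8 and 627, and LYZ, counted as higher at a bound of at least 1.90-fold. The pan-leukocyte marker PTPRC and the T cell marker CD3E were not detected, and the summed signal was 77.9 and 575. Of 5 endothelial markers 3 were detected, with TEK at least 5.74-fold higher by both probes, PECAM1 2.41-fold higher and VWF within 2-fold. CDH5 and KDR were not detected, and the summed signal was 100.3 and 282. TEK and LYZ, like PDGFRB and COL3A1, were detected in drug-selected cells alone and passed the filter only through that array. The part of these differences in those of the AP-1 and EGR genes was not tested.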

How the data were processed

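RNA was hybridised to HumanHT-12 v4 bead arrays, 1 for parental and 1 for drug-selected cells. For each of 47323 probes the authors deposited a mean bead signal, an intensity on a linear scale (lowest value 25.7 and 30.5, so the background subtraction named in the methods is not seen in it), and a detection p-value per probe, computed against the negative control beads. The authors deposited a second table of normalized intensity, with medians of 58.10 and 58.12, by a method that was not stated. The paper's fold is of suspended over adherent cells, names that neither label uses. Here every fold is of drug-selected over parental cells.

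Intensities were corrected with limma 3.58.1 in R 4.3.3 by normexp (offset 16), which took its background from the detection p-values, followed by quantile normalization and log2. Genes with a probe at a detection p-value under 0.05 on at least 1 array were kept. For a gene detected on 1 array only, a lower bound is printed, for which the dim signal was raised to the array's lowest detected one (log2 4.89 parental, 4.80 drug-selected) if it lay below it, and counts use the normalized signals without bounds. The platform annotation gave 1 symbol to 30113 probes and several to 8, which were not named. Probes with no symbol are unnamed here. The named genes were all members and, in each of 7 gene lists, up to 3 detected genes past 2-fold in each direction with the largest differences, and others were named after their values were seen. The members and lists were chosen with earlier results of these data known. No test was run, since each group had 1 array, which limits the precision. The normalization was tested on simulated data. The probes scored there were brighter above background than JUNB, FOSL1 and FOSL2 in parental cells, so these members are not covered by it. Counts and figures were made with Python 3.11.15, pandas 2.3.3 and matplotlib 3.10.9. Alternatives were other offsets (50 and 0), no normexp, other scalings, the authors' normalized values, other detection filters and fold thresholds, and the median over probes.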

Additional observations from a re-analysis of the deposited data

How the results depend on the processing

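FOS, ATF3 and JUN stayed below 0 and JUNB, FOSL2, FOSL1, FOSB and JUND above 0 under all 10 alternatives that give a log2 difference, while EGR1 was above 0 in 2 of them. The number of members higher, 1 under the main setting (JUNB), was 0 with a normexp offset of 50, without normexp, in the authors' normalized values and at a 3-fold threshold. It was 2 with an offset of 0, without normalization between the arrays, with scaling to the median and at a 1.5-fold threshold, with FOSL2 as the second. The number of members lower, 2 under the main setting (FOS and ATF3), was 1 without normalization between the arrays and with scaling to the median, where ATF3 was within 2-fold, and 0 at a 3-fold threshold. Of all genes, 914 higher and 749 lower under the main setting, 618 and 472 passed with an offset of 50, 1501 and 1337 with an offset of 0, 1817 and 341 without normalization between the arrays, 1402 and 434 with scaling to the median, and 653 and 480 without normexp. In the authors' normalized values 686 and 525 passed. The median log2 difference of the members was 0.49 without normalization between the arrays. That setting moved the median of all genes to 0.37, and scaling to the median moved it to 0.23. Relative to the median of all genes, FOS ranged from -1.49 to -1.42, ATF3 from -1.24 to -1.12 and JUNB from 0.92 to 1.25. Of 168 counts of the gene lists under the alternatives, 140 stayed within 1.5 times the main count. Many of the 140 were counts of 0 that stayed at 0, which says little of how stable the lists are. No paired analysis was possible because each group had 1 array. The signal over background limits FOSL1 and FOSL2, which lay at 1.40 and 1.26 times the background level in parental cells.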
